A study of Mus musculus with 7 samples.

Results

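The genes described here are the mouse major urinary protein (Mup) genes and the lipocalin genes with an Lcn symbol. They were chosen by name, as the protein-coding genes of the RefSeq table of GRCm38.p6 (the build also called mm10) whose symbol is Mup or Lcn followed by a digit. The rule gave 33 genes, 22 Mup and 11 Lcn, of 21887 protein-coding genes on the chromosomes examined. All 33 were placed against a list of lamin-associated domains (LADs), the stretches of chromosome that touch the lamina under the nuclear envelope.

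The list was deposited with CUT&RUN data from mouse embryonic fibroblasts labelled iMEF. In CUT&RUN an antibody on the chromatin guides a nuclease fusion that cuts out the DNA around its target. The series held 7 libraries, of which 2 were for Lamin B1 and 2 for the IgG control, with 1 for H3K14ac and 1 for H3K9me2 with each of 2 antibodies. The LAD list is named wild type and merged, and neither a treatment nor another genotype is given. The series' text describes separately derived lines of a single mouse colony, and the labels do not tie a library to a line. The list holds positions only, so no LAD has a signal, a read depth or a replicate error, and the groups were not compared with each other. Expression was not measured here, so the fibroblast label could not be checked against marker RNA. The midpoints of 6 fibroblast genes (Col1a1, Col1a2, Col3a1, Vim, Thy1 and Pdgfrb) all lay outside LADs, as did those of most protein-coding genes (16680 of 21887), so this count says little about the label.

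Lipocalins are small, mostly secreted proteins that fold into a barrel with a pocket for fatty or odorous molecules. Major urinary proteins are made mainly in the liver, pass into the urine, and carry volatile pheromones that they release slowly. Other members of the family are made in nasal, salivary and lacrimal glands. The Lcn genes serve other tissues, many of them the epididymis. LADs in general are poor in genes and in transcription.

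The families lay on opposite sides of the LAD map. All 22 Mup genes had their midpoint in a LAD, and all 11 Lcn genes had theirs outside. Among all protein-coding genes, 23.8% had their midpoint in a LAD. The share was 22.6% on chromosome 4, where the Mup genes lie, and 27.8% on chromosome 2, which holds the Lcn genes. Each Mup gene lay whole inside a LAD, and no Lcn gene overlapped one by a single base. The genes of a tandem cluster share their place, so the 22 Mup genes are 1 locus and not 22 separate observations, and 10 of the 11 Lcn genes are likewise 1 locus. With 1 merged list there was no test of these counts.

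The Mup cluster ran from Mup4 to Mup21 over 2194 kb of chromosome 4 (chr4:59956804-62150841, mm10), and 89.1% of this span lay in LADs. It was held by a pair of LADs. The first LAD (chr4:59940734-60888230) measured 947.5 kb and held 11 Mup genes. The second (chr4:61128231-62195726) measured 1067 kb and also held 11. Between them was a gap of 240.0 kb without the midpoint of any annotated gene, of any type.

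The outer borders of the pair lay close to the outer genes of the family. The first LAD began 16.1 kb before Mup4, a gene expressed in nasal tissue, and 25.7 kb after the end of Slc46a2, a transporter gene of the thymic stroma. The second LAD ended 44.9 kb past Mup21. That border fell inside Zfp37, a zinc finger gene, of which 6.19 kb lay in the LAD. Zfp37 is on the minus strand, and its annotated starts, at 12.5 and 12.8 kb from the border, were outside.

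None of the 5 protein-coding genes before the cluster (Hsdl2, E130308A19Rik, Inip, Snx30 and Slc46a2) had its midpoint in a LAD, nor did any of the 5 after it (Zfp37, Slc31a2, Fkbp15, Slc31a1 and Cdc26). Snx30, for a sorting nexin, lay 85.8 kb outside by its midpoint, and Slc31a2, a copper transporter gene, 93.7 kb. The gap before the first LAD was 5.25 Mb long and held 35 protein-coding genes. The gap after the second was 1.92 Mb long and held 30. The pair of LADs thus stood alone between long stretches without LADs.

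RefSeq promoter windows (GRCm38.p6, 250 bases before to 50 after the annotated start) were matched for 14 of the 22 Mup genes and all 11 Lcn genes. Mup1, Mup5, Mup8, Mup12, Mup13, Mup16, Mup20 and Mup22 had no entry. The windows shown are those of a short list of Mup genes (the first and last of the cluster, Mup3, Mup5, Mup6 and Mup20) that had an entry. The 4 that did lie at the outer ends of the cluster, Mup4 and Mup6 at the start of the first LAD and Mup3 and Mup21 at the end of the second. Capitals mark the longest run of bases found in 13 of the 14 Mup windows, which has 17 bases, or its counterpart in Mup21. Mup4, Mup3 and Mup21 are read on the minus strand and Mup6 on the plus strand, each from 5′ to 3′ along the gene.
Mup4 (chr4:59960618-59960917): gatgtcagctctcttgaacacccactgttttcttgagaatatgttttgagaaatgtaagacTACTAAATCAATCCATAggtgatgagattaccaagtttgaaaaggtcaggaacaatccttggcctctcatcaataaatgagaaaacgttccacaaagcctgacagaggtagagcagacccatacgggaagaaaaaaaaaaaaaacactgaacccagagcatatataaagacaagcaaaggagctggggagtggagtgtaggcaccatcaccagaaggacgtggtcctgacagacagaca
Mup6 (chr4:60003231-60003530): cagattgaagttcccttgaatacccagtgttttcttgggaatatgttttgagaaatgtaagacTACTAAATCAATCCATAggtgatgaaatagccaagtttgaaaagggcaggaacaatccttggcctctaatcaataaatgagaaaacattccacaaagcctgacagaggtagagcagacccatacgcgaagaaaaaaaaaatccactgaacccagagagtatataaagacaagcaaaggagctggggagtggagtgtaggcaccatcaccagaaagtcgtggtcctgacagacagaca
Mup3 (chr4:62087268-62087567): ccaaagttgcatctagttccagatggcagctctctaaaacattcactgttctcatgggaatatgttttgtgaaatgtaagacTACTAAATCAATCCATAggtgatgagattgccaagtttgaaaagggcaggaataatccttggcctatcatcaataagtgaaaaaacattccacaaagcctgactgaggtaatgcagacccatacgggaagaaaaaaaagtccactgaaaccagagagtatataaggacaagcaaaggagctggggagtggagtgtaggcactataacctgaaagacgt
Mup21 (chr4:62150792-62151091): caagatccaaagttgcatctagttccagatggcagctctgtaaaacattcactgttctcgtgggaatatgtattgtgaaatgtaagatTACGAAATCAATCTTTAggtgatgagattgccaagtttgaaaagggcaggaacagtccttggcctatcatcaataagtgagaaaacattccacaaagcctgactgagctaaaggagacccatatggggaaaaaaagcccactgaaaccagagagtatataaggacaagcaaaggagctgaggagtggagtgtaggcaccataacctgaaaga

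The run TACTAAATCAATCCATA was present in 13 Mup windows and in no other of the 17492 protein-coding promoter windows, searched on both strands. It was picked as the longest run these 13 windows share, so its presence in them follows from that choice. A run this long is also unlikely to recur elsewhere, and a role in transcription was not tested. Mup21 carried TACGAAATCAATCTTTA at this place by alignment to Mup3, with the substitutions T4G, C14T and A15T, written with the shared base first and counted from 1 at the 5′ end of the run. The run began 88 to 225 bases before the annotated start, nearest in Mup7 and farthest in Mup9. The annotated starts are not placed alike in all copies. In Mup9, on the minus strand, the start (60421952) lies inside the gene, which is listed to 60422085. In Mup7 it is the end of the listed gene (60070475). This range, and the lengths over which windows align, therefore also depend on the annotation.

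A longer run of 66 bases was common to 9 windows and is shown as an example of how long a stretch many copies share. It was found in Mup7, Mup2, Mup9 and Mup11 of the first LAD and in Mup14, Mup15, Mup17, Mup18 and Mup19 of the second. The windows of Mup4, Mup6, Mup10, Mup3 and Mup21 lacked it. It holds the 17-base run, and capitals here mark the whole shared stretch.
Run shared by 9 Mup windows: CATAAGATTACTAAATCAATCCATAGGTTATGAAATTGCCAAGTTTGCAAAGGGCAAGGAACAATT

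**Figure D1:**
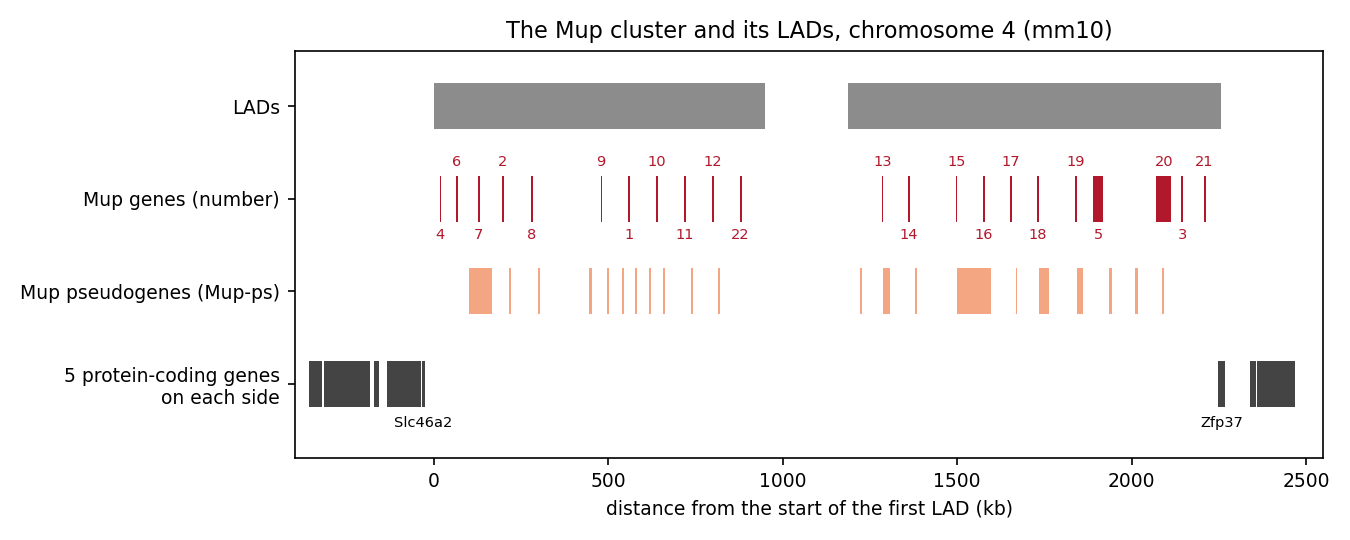
Map of the Mup cluster on chromosome 4, with distance from the start of the first LAD in kb on the x axis and rows for LADs, the 22 Mup genes, the 22 Mup pseudogenes of the cluster and the 5 protein-coding genes on each side. Genes shorter than 5 kb are drawn 5 kb wide. All Mup genes fall in the 2 LADs, and none falls in the 240.0 kb gap.

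The pair of LADs held Mup genes and little else. The first LAD had 24 annotated genes, of which 11 were Mup genes, 12 had a Mup pseudogene symbol and the last was the noncoding RNA gene Gm21286. The second had 22, of which 11 were Mup genes and 10 carried a Mup pseudogene symbol, with the noncoding RNA gene Gm12909 as the remaining one. The table lists 2 of those 10, Mup-ps12 and Mup-ps16, as protein-coding, so every protein-coding gene of both LADs had a Mup symbol. Of the 244 LADs with at least 5 protein-coding genes, 19 (7.79%) held genes of only 1 symbol stem, meaning the letters before the number. The others of these 19 included 5 of olfactory receptors (Olfr), 3 of vomeronasal receptors (Vmn) and 2 of cytochromes P450 (Cyp). This count was made after the Mup LADs had been seen.

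Their gene density was high for LADs of their length. Protein-coding genes numbered 11.6 per Mb in the first and 12.2 in the second. The 377 LADs of 500 to 1500 kb had a median of 2.37 per Mb and of 2 genes. Of them 42, both Mup LADs included, held at least 11, a bound taken from the count of the first Mup LAD. The 2 LADs were picked because they hold the Mup genes, so a high count follows in part from that choice. By length the LADs were not exceptional, at ranks 453 and 405 of 1437.

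All 22 genes with a Mup-ps symbol in the cluster had their midpoint in these LADs. Of the others, Mup-ps22 on chromosome 11 and Mup-ps23, listed by the table at 68321 to 78464 of chromosome 4, lay outside.

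Along the first LAD the genes followed in the order Mup4, Mup6, Mup7, Mup2, Mup8, Mup9, Mup1, Mup10, Mup11, Mup12 and Mup22. Their midpoints lay 18.0 to 468.2 kb from the nearest border, with a median of 197.2 kb. Mup4 was the shallowest, at 18.0 kb, followed by Mup6 at 64.6 kb and Mup22 at 68.6 kb. Mup9 was the deepest, at 468.2 kb, close to the middle of the LAD. Mup1, a main urinary protein of the liver, lay at 388.2 kb.

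In the second LAD the order was Mup13, Mup14, Mup15, Mup16, Mup17, Mup18, Mup19, Mup5, Mup20, Mup3 and Mup21. The depth ran from 46.4 kb for Mup21 to 523.6 kb for Mup18, with a median of 309.6 kb. Mup5, a salivary gland gene, lay 351.0 kb from the border. Mup20 encodes darcin, the urinary protein by which females recognise and prefer males, and lay at 163.0 kb (chr4:62011337-62054143). Mup3 lay at 110.3 kb.

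Over the whole family the median depth was 212.5 kb. For the 5207 protein-coding genes in LADs it was 307.7 kb (quartiles 106.4 and 721.4 kb). The family's lower median came from the first LAD (197.2 kb), while that of the second (309.6 kb) was close to the value for all genes. The length of a LAD limits how deep a gene in it can lie.

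Mup genes were mostly short, and many were evenly spaced. Their lengths ran from 3.01 to 42.8 kb with a median of 4.01 kb. Mup5, at 26.7 kb, and Mup20 were the only ones longer than 5 kb. The midpoints of neighbours were a median of 79.8 kb apart, and 10 of the 21 distances lay between 70 and 90 kb. The run from Mup9 through Mup1, Mup10, Mup11 and Mup12 to Mup22 had steps of 79.9, 80.3, 80.2, 78.9 and 80.2 kb.

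Wider steps separated Mup8 from Mup9 (199.5 kb), Mup5 from Mup20 (188.1 kb) and Mup14 from Mup15 (135.7 kb), and each of these lay within a single LAD. The widest step, 406.7 kb from Mup22 to Mup13, was the one that held the gap between the LADs. The first LAD went on for 66.6 kb past the end of Mup22, and the second began 96.1 kb before Mup13. Gaps at least as long as this one numbered 704 in the list, and 19 of them (2.70%) held no gene midpoint at all. No genome sequence was used here, so stretches of unknown bases in the gap were not looked for.

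**Figure D2:**
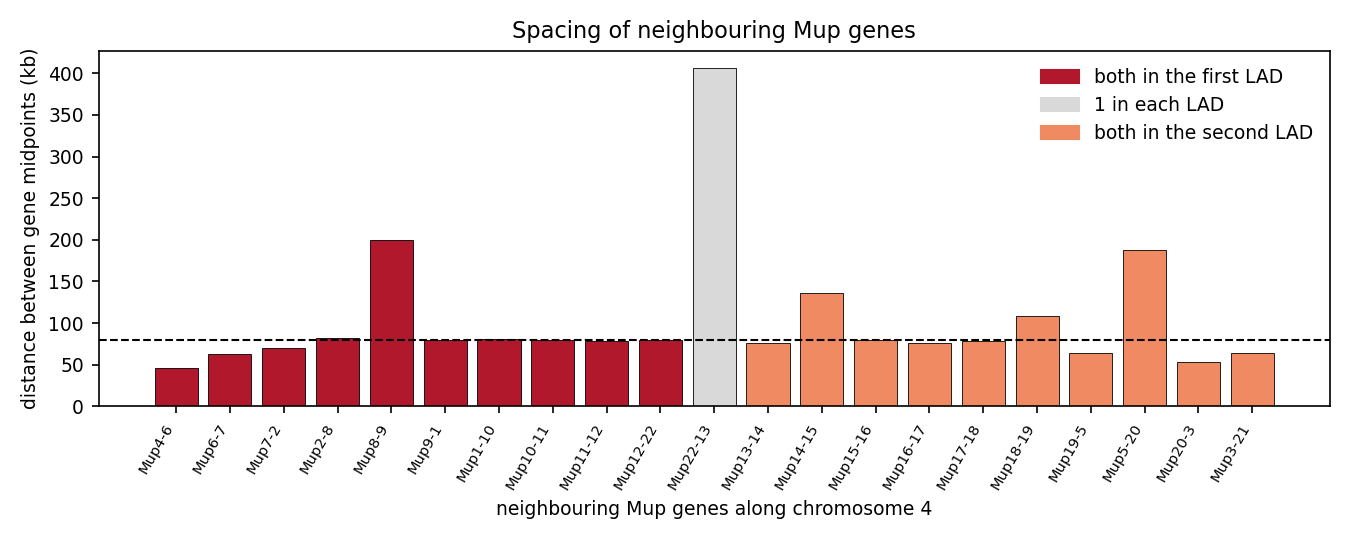
Bars give the distance in kb between the midpoints of neighbouring Mup genes in their order along chromosome 4, coloured by the LAD that holds them, and the dashed line is the median of 79.8 kb. The step from Mup22 to Mup13, 406.7 kb, spans the gap between the LADs.

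The Lcn genes lay in a single gap between LADs on chromosome 2 (chr2:24269835-36302296). This gap was 12032 kb long and held 259 protein-coding genes, or 21.5 per Mb. It ranked 7 by length and 4 by number of protein-coding genes among 1416 gaps. The LADs before and after it each measured 1027 kb. The one before held 7 protein-coding genes and the one after 27, all of them olfactory receptors.

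From Lcn12 to Lcn4, 10 Lcn genes spread over 1180 kb (chr2:25490845-26671282), and no base of this span was in a LAD. Lcn12 was the nearest of all Lcn genes to a border, at 1223 kb by its midpoint. Lcn15, Lcn8, Lcn5, Lcn6 and Lcn10 followed within a stretch at 1377 to 1415 kb. Lcn8, Lcn5, Lcn6, Lcn10, Lcn9 and Lcn12 are genes of the epididymis, and Lcn5 encodes its retinoic acid-binding protein.

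Lcn3 and Lcn4 encode secretory proteins of the vomeronasal organ. Lcn3 lay at 1497 kb and was followed by Lcn11 at 1509 kb and Lcn9 at 1554 kb. Lcn4 stood apart from the others, 842.1 kb beyond Lcn9 and 2400 kb from the border. All 10 had the LAD before the gap as their nearest.

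Lcn2 encodes an acute-phase protein that withholds iron from bacteria by binding their siderophores. It was separate from the cluster, 5.71 Mb beyond Lcn4 (chr2:32384637-32387739). At 3916 kb from the nearest border, here the LAD after the gap, it was the farthest of the Lcn genes. Its RefSeq promoter window, of the same size as for the Mup genes, is shown for that reason. The gene is on the minus strand, and capitals mark the 3 CG dinucleotides of the window, which are taken up with those of the other genes.
Lcn2 (chr2:32387690-32387989): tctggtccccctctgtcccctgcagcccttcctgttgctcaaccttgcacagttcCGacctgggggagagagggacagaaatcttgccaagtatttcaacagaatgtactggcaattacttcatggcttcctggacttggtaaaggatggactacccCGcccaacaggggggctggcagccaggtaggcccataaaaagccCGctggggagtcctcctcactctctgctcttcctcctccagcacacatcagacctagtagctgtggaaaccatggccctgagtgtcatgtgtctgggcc

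The median distance of the 11 Lcn genes was 1415 kb. For the 16680 protein-coding genes outside LADs it was 796.3 kb (quartiles 261.9 and 1826 kb). The Lcn genes were thus farther out than the median gene outside LADs, and 9 of them shared the stretch from 1223 to 1554 kb.

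The Lcn cluster was also mixed with other genes, unlike the Mup cluster. Between Lcn12 and Lcn4 lay 36 protein-coding genes that are not Lcn genes, among them Traf2, a signalling adaptor of tumour necrosis factor receptors, and Notch1, a receptor of cell fate decisions. None of the 36 had its midpoint in a LAD, nor did any of the 5 genes on each side of the cluster or of Lcn2. Between Mup4 and Mup21 only Mup-ps12 and Mup-ps16 were listed as further protein-coding genes. Steps between neighbouring Lcn genes ran from 5.28 to 845.2 kb with a median of 19.0 kb, against 79.8 kb for Mup genes. Lcn genes were 2.46 to 4.97 kb long, with a median of 3.26 kb.

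**Figure D3:**
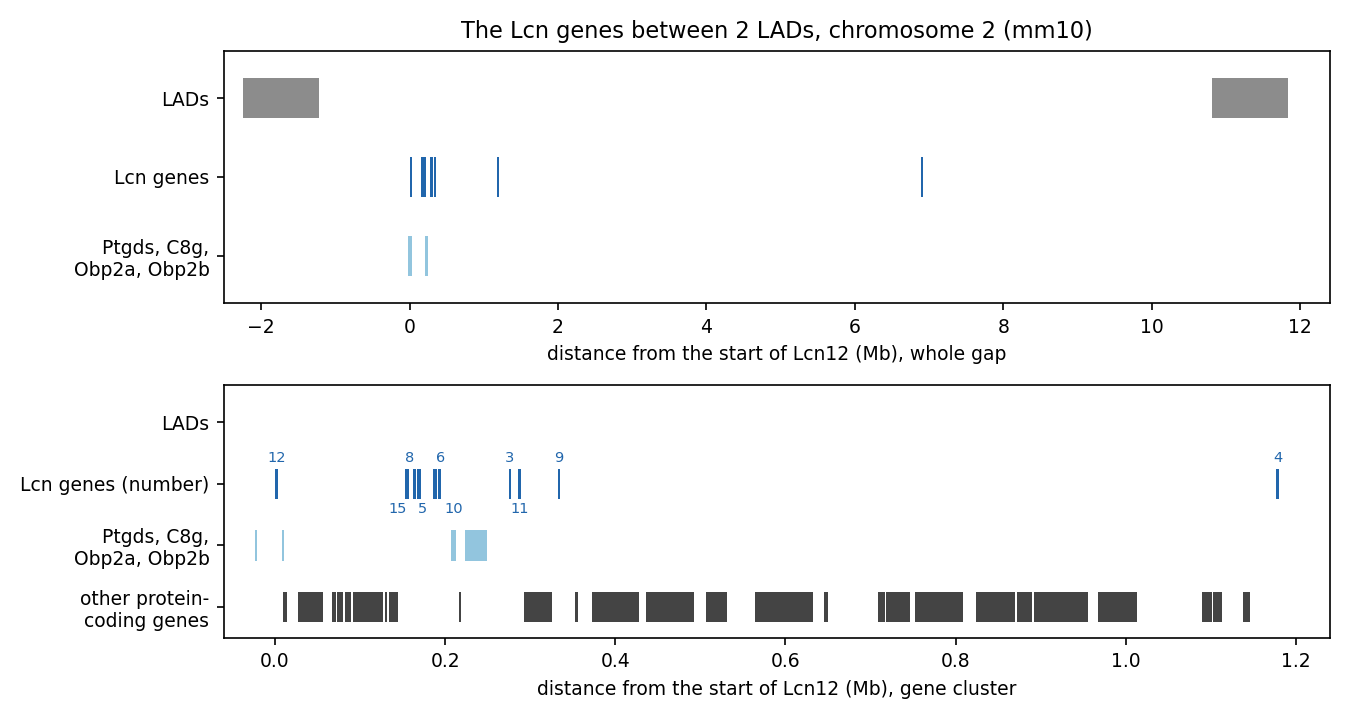
Map of the Lcn genes on chromosome 2, with distance from the start of Lcn12 in Mb on the x axis, for the whole gap between its 2 LADs (top, where genes are drawn at least 30 kb wide) and for the cluster from Lcn12 to Lcn4 (bottom, at least 2 kb wide). The cluster lies 1.22 Mb from the LAD before it, and Lcn2 lies alone 5.71 Mb beyond Lcn4.

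Other lipocalin genes, which carry other symbols, were placed in the same way from a list of 13. Of these, 2 (15.4%) lay in LADs and 11 outside, beside 23.8% in LADs for all protein-coding genes, so the list's count was not far from that of genes in general. The 2 were Obp1a and Obp1b on the X chromosome, which encode odorant-binding proteins of the nasal glands. Their midpoints lay 201.9 and 209.6 kb inside a border.

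The other odorant-binding genes, Obp2a and Obp2b, lay among the Lcn genes at 1431 and 1457 kb outside. So did C8g, for a chain of complement, at 1230.4 kb. Ptgds, for a prostaglandin D synthase that also carries lipids, lay just before Lcn12 at 1199 kb. Apod, Apom and Rbp4, which carry lipids and retinol in blood and tissue, were 910.0 to 1776 kb outside.

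On chromosome 4, beyond the Mup cluster, lay Ambp, for alpha-1-microglobulin, and the Orm genes for the plasma protein orosomucoid. All 4 are products of the liver, like the urinary Mup proteins. Ambp began 947.5 kb past the end of the second Mup LAD and had its midpoint 953.0 kb from a border. Orm1, Orm3 and Orm2 lay at 771.9, 760.4 and 754.1 kb, nearer to the next LAD of the chromosome. Liver lipocalin genes of the same chromosome were therefore found both in LADs (Mup) and outside them (Ambp and Orm).

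**Figure D4:**
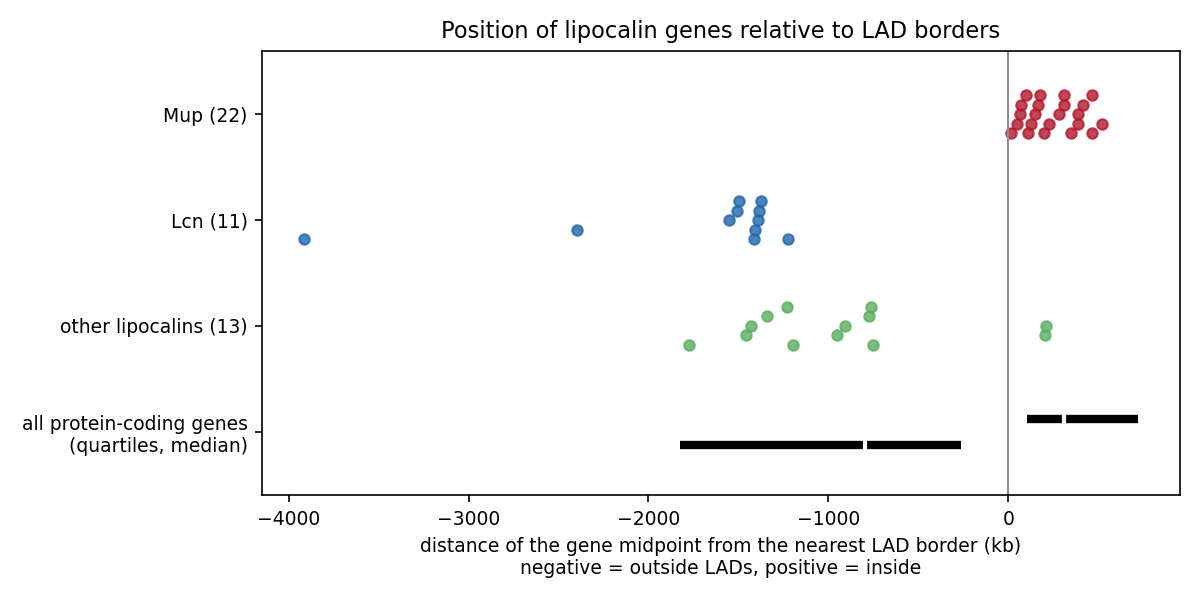
Each point is a gene midpoint, with its distance from the nearest LAD border in kb on the x axis (positive inside a LAD, negative outside), for 22 Mup, 11 Lcn and 13 other lipocalin genes. Points are spread vertically for legibility, and black bars give the quartiles of all protein-coding genes inside and outside, with a white mark at the median. Mup genes lie from 18.0 to 523.6 kb inside and Lcn genes from 1223 to 3916 kb outside.

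The sequences at the gene starts were compared within and between the families. Aligned pair by pair, the 14 Mup promoter windows were 84.0% to 100% identical over 161 to 297 aligned bases, with gaps not counted (91 pairs, median 94.2%). Mup15 and Mup17 were identical at all 297 aligned bases, and Mup11 and Mup19, which lie in different LADs, at all 264. The least alike were Mup7 and Mup21, at 84.0% of 213. Pairs across the 2 LADs had a median of 94.8% (49 pairs), and pairs within the first and the second had 93.8% and 94.2% (21 pairs each). Windows of Lcn genes aligned over at most 32 bases in any of 55 pairs. Short reads from the Mup windows can match more than 1 copy. How reads that match several Mup copies were treated is not given in the sources used here, and its part in the LAD calls and in the gap between them was not tested.

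Of the 14 Mup genes with a strand in the promoter table, 13 were on the minus strand, and Mup6 was on the plus strand. Of the 11 Lcn genes, 8 were on the plus strand, and Lcn12, Lcn4 and Lcn2 were on the minus strand.

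Mup windows were poor in G and C, with 37.7% to 42.3% (median 40.0%), and Lcn windows richer, with 47.3% to 56.3% (median 53.0%), so the families did not overlap. The median was 45.0% for the 4278 protein-coding genes with a window in LADs and 59.0% for the 13214 outside. Each family was thus below the median of the genes on its own side of the LAD map.

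CG dinucleotides, the sites of DNA methylation, were few in both families. Mup windows held 1 to 4 (median 3) and Lcn windows 0 to 4 (median 2). The median was 2 in windows of genes in LADs and 17 in windows of genes outside. Windows with at most 4 made up 65.1% in LADs and 17.5% outside. All 11 Lcn windows thus held as few as most windows of genes in LADs, although the Lcn genes lay outside. The window of Lcn2, printed with that gene, holds 3 of them.

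**Figure D5:**
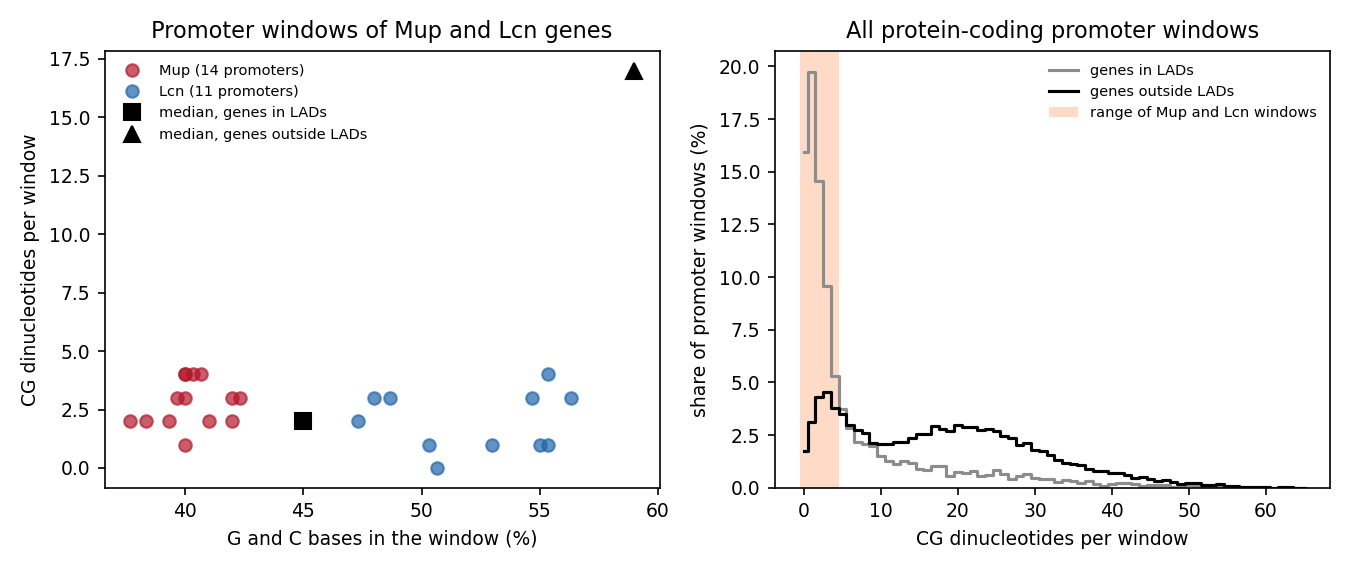
Left, the percentage of G and C bases (x axis) and the number of CG dinucleotides (y axis) in the promoter window of each Mup and Lcn gene, with the medians of protein-coding genes in and outside LADs. Right, the share of all promoter windows by their number of CG dinucleotides. Every Mup and Lcn window holds at most 4, while windows of genes outside LADs have a median of 17.

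Short motifs were searched on both strands. TATAAA was found in 2 Mup windows, Mup4 and Mup6, each beginning 27 bases before the start, and in 2 Lcn windows, Lcn5 and Lcn3, 28 and 29 bases before it. It was found in 13.3% of all windows, with 25.1% for genes in LADs and 9.54% for genes outside. With 2 windows in each family, no difference from these shares can be read. Only the exact motif was counted. The printed windows of Mup3 and Mup21 have TATAAG at the matching place, so a window without TATAAA can still hold a similar sequence. CCAAT was found in 6 Mup and 4 Lcn windows, against 39.0% of all windows. The motif TTC followed by GAA after 3 bases was found in no Mup window and in 1 Lcn window, Lcn10, against 7.83% of all. Of these motifs only CG can lie inside another, the last one.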

How the data were processed

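Per the labels' protocols, iMEF cells were profiled by CUT&RUN, with spike-in DNA from E. coli in the Lamin B1 and IgG reactions. Bowtie2 and mm10 are named in the submitters' processing notes. The domain caller, its threshold, and the use of IgG and of the spike-in are not given in the sources used here. The authors deposited 1437 domains as start and end positions in base pairs, with a score column that holds 0 in every line. The name of the list gives LAD, wild type and merged, but not Lamin B1. That it comes from Lamin B1 was inferred from LAD in the name and from the titles of the Lamin B1 libraries. What was merged is not given in the sources used here. All domain lengths (100%) lay on a grid of 2.5 kb within 5% of a step, so borders are given in steps of about this size. How accurate a border is was not known, and it can be coarser than the grid. The smallest gap between LADs was 52.5 kb. Depth per sample is unknown.

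Genes and promoter windows came from RefSeq GRCm38.p6. A gene was in a LAD if its midpoint was. A cluster ends where neighbouring members are over 1 Mb apart. Counts cover every gene of the table on chromosomes that hold a LAD, and no test or p-value was computed. In comparing alternatives, a binomial interval served only as a yardstick for how far a share moved, not as its error. Placement was tested on made-up domains with known positions. Promoters were aligned locally in pairs with Biopython 1.88 (match 2, mismatch -3, gap opening -5, extension -2), with 1 window per gene. All members were named, with the 5 genes on each side of a cluster, the genes between members, the LADs and gaps around them, and a list of 13 other lipocalin genes and of 6 fibroblast genes. Printed promoters were to be those of the first and last Mup gene, Mup3, Mup5, Mup6, Mup20, Lcn2 and any Lcn gene beside a LAD border within the family (there was none), where an entry exists. Members, lists and rules were chosen with earlier results of these data known. Planned protein comparisons were not run, since no protein sequences were used here. Other ways of placing a gene, minimum LAD lengths and joining of nearby LADs were tried as alternatives. Other libraries were not analysed here.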

Additional observations from a re-analysis of the deposited data

How the results depend on the processing

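Of 39 recomputed values, 30 stayed the same by the criteria used. These were a factor of 1.5 for counts and, as a yardstick only, a 95% binomial interval for shares. The 30 include every value for Lcn genes, which was 0 each time. Most values for the 2 families could hardly change. The Lcn genes lay at least 1223 kb from a border by their midpoints, and each Mup gene lay whole inside a LAD of 947.5 or 1067 kb. The tally is therefore not a measure of robustness. All 22 Mup genes stayed in LADs when either end, the whole gene or any overlap was used, with only LADs of at least 100 or 500 kb, and with LADs joined at 100 or 250 kb. By annotated start, an alternative chosen after seeing the data, it was 14 of the 14 Mup genes with an entry. With pseudogenes the count was 44 of 46. Both counts moved by more than that factor because other numbers of genes were counted. The share of all protein-coding genes in LADs, 23.8%, was 21.8% for whole genes, 25.1% for any overlap, 20.7% with LADs of at least 500 kb, 24.5% with joining at 100 kb and 27.3% with joining at 250 kb. The covered share of the Mup cluster, 89.1%, was 100% with joining at 250 kb, which closes the gap by construction, and 74.8% with the span widened by 250 kb on each side, which adds bases beyond the LADs by construction.

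No paired analysis was possible because the list, named merged, holds no values per replicate. Single Lamin B1 libraries could not be left out either. The unknown depth limits what can be said of the gap between the Mup LADs and of single borders.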

Other observations

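Other tandem families were placed as whole runs, meaning at least 10 protein-coding genes with the same symbol stem and at most 1 Mb between neighbours, leaving out symbols that contain -ps. This was done after the Mup and Lcn values had been seen. There were 93 such runs. In 40 every gene had its midpoint in a LAD, in 24 none had, and 29 were mixed. Without olfactory and vomeronasal receptors the counts were 26, 22 and 14 of 62. The Mup run was among those wholly inside and the Lcn run among those wholly outside. A run that lies wholly on one side was therefore common in this list.

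The Esp genes, which encode peptides of tear and other exocrine glands that act as pheromones, form a run of 15 genes on chromosome 17, all 15 in LADs. Scgb genes, which include the androgen-binding proteins of mouse saliva, had 31 of 32 in LADs on chromosome 7, again without -ps symbols. The Taar run of chromosome 10, for trace amine receptors of the nose, had 0 of 15. These families were picked for their part in chemical communication after their values were seen.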
